A study of Mus musculus with 6 samples.

Results

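The cellular Abl1 kinase gene, the JAK-STAT5 genes and their feedback genes were examined across 3 clonal lines of immortalised mouse B cells. The 10 genes were chosen by gene symbol: the kinase genes Abl1, Jak1 and Jak2, the transcription factor genes Stat5a and Stat5b, the feedback inhibitor genes Cish, Socs1, Socs2 and Socs3, and the target gene Pim1. All 10 were among the 37315 genes of the abundance table, and 9 of them had allelic counts that could be used. Allelic counts of Abl1 were not analysed here.

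Abl1 encodes a tyrosine kinase that normally relays signals from growth factors, adhesion and DNA damage. Its viral form, v-Abl, is constantly active, transforms precursor B cells and is known to switch on JAK-STAT5 signalling without cytokine. In the normal pathway, cytokine receptors such as that for interleukin 7 activate JAK kinases, which phosphorylate the STAT5 proteins. STAT5 then enters the nucleus and turns on survival genes together with Cish and the Socs genes, whose products dampen the receptors and the JAK kinases.

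The lines, named Abl.2, Abl.3 and Abl.4, each carry the F1 genome of 129S1/SvImJ and CAST/EiJ mice. By their labels Abl.3 is the male line and the others are female, so that differences of Abl.3 from the other lines and the sex of the line cannot be told apart. Every library was of control cells in medium containing 1% DMSO, a solvent, taken on day 2, and animal ages are not given in the sources used here. Each line is 1 clone with 2 library preparation replicates, so p-values measure only the spread between these libraries, which may be technical. The labels do not say how the cells were immortalised; lines of this name are known as Abelson virus lines, and reads assigned to Abl1 may come in part from v-Abl.

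Allelic counts summed to between 18362319 and 26881211 per library, while the abundance values, in TPM (a transcript's abundance per length, relative to the library), keep no depth. All 7 B-lineage markers and all 7 precursor B markers reached at least 1 TPM in every library. The B-lineage markers summed to 6714 to 6914 TPM in Abl.2, 5358 to 5804 TPM in Abl.3 and 7320.0 to 7434 TPM in Abl.4, and the precursor B markers to 9582 to 10123, 9445 to 10402 and 8294 to 8363 TPM. Among them Pax5 had means of 226, 60.1 and 161 TPM and Rag1 of 23.3, 4.87 and 11.4 TPM, both lowest in Abl.3. Rag2 was highest there, at 43.41 and 46.47 TPM against 17.02 to 26.27 TPM in the libraries of the other lines. Cd22, with means of 22.3, 19.4 and 92.4 TPM, and Dntt, with 2.96, 1.39 and 12.5 TPM, were highest in Abl.4. The 6 T-cell markers summed to at most 0.0700 TPM, the 5 erythroid markers to at most 1.54 TPM and the 4 stromal markers to at most 0.0700 TPM. The 6 myeloid markers summed to 159 to 193 TPM in Abl.2, 75.0 to 97.2 TPM in Abl.3 and 77.9 to 89.4 TPM in Abl.4, with Adgre1 and Elane at 0. Of these 6 genes, Lyz2 alone reached 1 TPM in every library, with means of 175, 85.1 and 76.6 TPM across Abl.2, Abl.3 and Abl.4. Itgam had the opposite order, with means of 0.430, 0.845 and 6.81 TPM. The 3 plasma cell markers summed to 24.9 to 28.1 TPM in Abl.2, 8.42 to 9.23 TPM in Abl.3 and 21.9 to 22.4 TPM in Abl.4. The part of these marker genes in the differences given here was not tested. In bulk RNA, fewer cells of a type and less RNA per cell cannot be told apart.

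STAT5 binds a palindrome whose core is TTCNNNGAA, which reads the same on both strands, and its letters were searched in the RefSeq promoters of build GRCm38.p6, each with 250 bases before and 50 after an annotated start. Promoters of 9 of the 10 genes were matched by symbol. Cish held 2 matches, which began at bases 1 and 12 counted from the annotated start. Socs3 held 1, which began 154 bases upstream of its annotated start. Both windows lie inside the gene spans given below, whose own starts are further upstream. Of all 32851 promoters in the table, 8.30% held at least 1 match and 0.457% held 2 or more. Counted over the 27025 genes of these promoters, the shares were 9.55% and 0.540%. No match to these letters was found in the windows of Abl1, Jak1, Jak2, Stat5a, Stat5b, Socs1 and Pim1. The promoters of Cish and Socs3 are printed because they hold the matches, and that of Socs1 because its abundance had the widest range among the 10 genes; matches are in capitals.
Cish, chr9:107296409-107296708, plus strand: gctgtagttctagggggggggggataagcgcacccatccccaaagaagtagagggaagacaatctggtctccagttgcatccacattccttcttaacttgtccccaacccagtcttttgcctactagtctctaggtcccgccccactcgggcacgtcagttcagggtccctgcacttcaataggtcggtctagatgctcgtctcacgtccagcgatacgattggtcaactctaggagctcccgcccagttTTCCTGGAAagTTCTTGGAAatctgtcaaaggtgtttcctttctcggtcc
Socs3, chr11:117969317-117969616, minus strand: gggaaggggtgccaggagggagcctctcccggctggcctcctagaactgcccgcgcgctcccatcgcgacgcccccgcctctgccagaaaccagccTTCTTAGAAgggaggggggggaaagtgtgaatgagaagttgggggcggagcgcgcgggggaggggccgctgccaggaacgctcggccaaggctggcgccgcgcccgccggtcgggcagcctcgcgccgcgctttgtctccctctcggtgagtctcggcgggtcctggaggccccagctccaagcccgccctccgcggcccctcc
Socs1, chr16:10785487-10785786, minus strand: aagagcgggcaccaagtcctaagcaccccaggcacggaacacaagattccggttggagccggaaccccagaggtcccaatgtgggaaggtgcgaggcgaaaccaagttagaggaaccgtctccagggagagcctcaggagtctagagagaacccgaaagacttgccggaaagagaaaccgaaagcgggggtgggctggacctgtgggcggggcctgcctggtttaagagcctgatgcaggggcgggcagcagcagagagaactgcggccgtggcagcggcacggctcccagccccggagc
A match is a description of the letters and not a measured binding site.

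By line means, Jak1, Jak2, Stat5a and Stat5b were lowest in Abl.3, whereas Abl1, Cish, Socs1 and Pim1 were lowest in Abl.4. Socs2 and Socs3 were highest in Abl.2. Differences were tested with limma on log2(TPM + 1) over the 11003 genes whose mean reached 1 TPM. A gene was called where its Benjamini-Hochberg adjusted p-value was under 0.05. Comparing Abl.2 with Abl.3, 8 of the 10 genes were called, all higher in Abl.2, where 39.8% of all genes tested were called, 25.9% higher in Abl.2 and 14.0% higher in Abl.3. Between Abl.2 and Abl.4, 5 of the 10 were called, all higher in Abl.2, against 33.5% of all genes, 15.0% higher in Abl.2 and 18.4% higher in Abl.4. Between Abl.3 and Abl.4, 7 were called, 3 higher in Abl.3 and 4 higher in Abl.4, against 38.1% of all genes, 11.3% higher in Abl.3 and 26.8% higher in Abl.4. The median log2 difference of the 10 genes was 0.60 for Abl.2 minus Abl.3, 0.36 for Abl.2 minus Abl.4 and -0.20 for Abl.3 minus Abl.4. Over all genes tested the medians were 0.10, -0.027 and -0.15 in the same order.

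The scaling of the libraries affects these directions. As deposited, Abl.2 was the higher line in 65.0% of all calls against Abl.3, in 51.4% after quantile normalization and in 52.4% with allelic counts summed over the alleles. Between Abl.2 and Abl.4 the share higher in Abl.2 was 44.9%, 52.8% and 49.3%, and between Abl.3 and Abl.4 the share higher in Abl.3 was 29.8%, 52.0% and 46.7%, in the same order. Quantile normalization moved the median of all genes between Abl.3 and Abl.4 from -0.146 to 0.031. After it, 7 of the 10 genes were called higher in Abl.2 than in Abl.3 and none lower. Between Abl.2 and Abl.4 they numbered 5 and 0, and between Abl.3 and Abl.4 there were 2 higher and 3 lower in Abl.3. Of all genes tested after quantile normalization, 36.6% were called in the first pair (18.8% higher and 17.8% lower), 34.7% in the second (18.3% and 16.4%) and 33.3% in the third (17.3% and 16.0%).

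**Figure D1:**
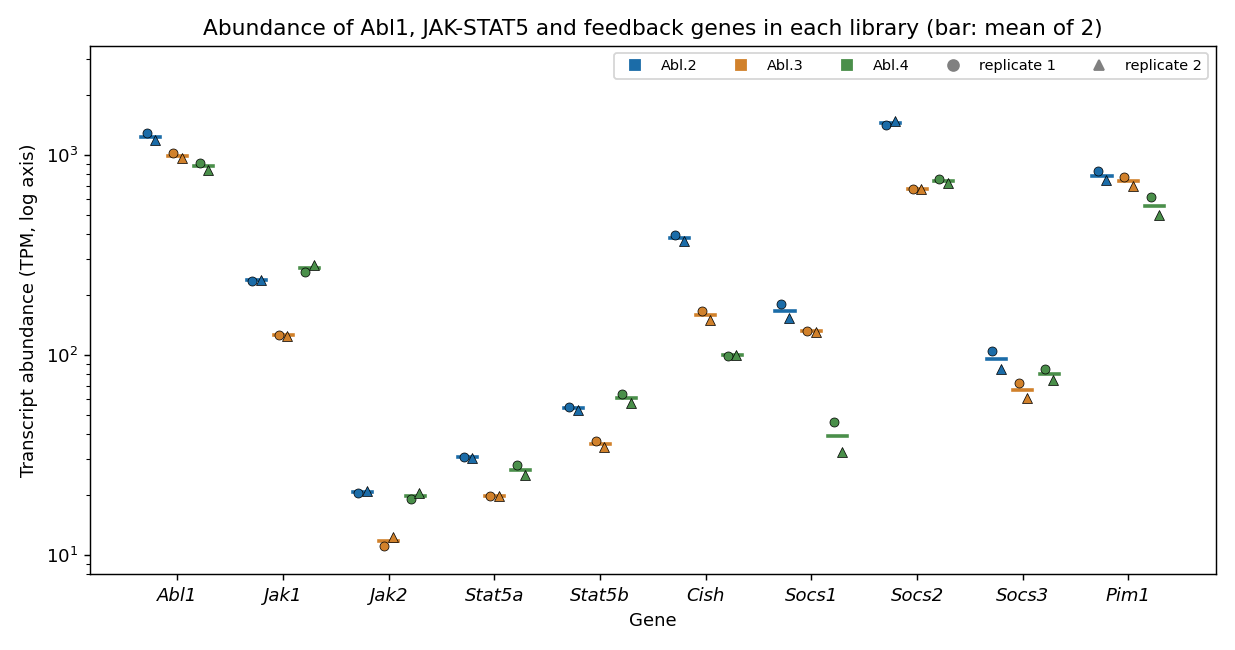
Transcript abundance in TPM on a log axis for the 10 genes, with 1 point for each library, coloured by line and shaped by replicate number, and a bar at the mean of 2 libraries. Cish and Socs2 are highest in Abl.2, Socs1 is lowest in Abl.4 at 46.11 and 32.77 TPM, and Jak1, Jak2, Stat5a and Stat5b are lowest in Abl.3.

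Abl1 was among the most abundant transcripts of these cells, at ranks 96 to 162 of all genes over the 6 libraries. The gene lies on chromosome 2 (GRCm38, 31688376 to 31804227) and overlaps the antisense gene Gm13427. Since the strand used in counting is not given in the sources used here, reads of overlapping genes on opposite strands cannot be told apart. The libraries of Abl.2 had 1278.89 and 1185.39 TPM, those of Abl.3 1021.91 and 959.82 TPM, and those of Abl.4 914.32 and 840.2 TPM. The lines did not overlap, and their order was Abl.2, Abl.3, Abl.4. By limma with Benjamini-Hochberg adjustment, Abl1 was higher in Abl.2 than in Abl.4 by 0.49 ± 0.083 on the log2 scale (SE, adjusted p = 0.00537) and than in Abl.3 by 0.31 ± 0.083 (adjusted p = 0.0249). Abl.3 and Abl.4 were not called apart (0.18, limma adjusted p = 0.138), but they were in the fit blocked on replicate number (0.18). The difference of Abl.2 from Abl.3 was no longer called with no filter on low genes (0.31) or without Abl.2 replicate 1 (0.26), Abl.2 replicate 2 (0.37), Abl.3 replicate 1 (0.36) or Abl.3 replicate 2 (0.27), and that from Abl.4 not without Abl.2 replicate 1 (0.44). These values may include v-Abl reads, and their share was not tested.

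The paralogous kinase gene Abl2, in contrast, was at 2.61 ± 0.368, 1.95 ± 0.113 and 2.10 ± 0.389 TPM across Abl.2, Abl.3 and Abl.4 (SD, n = 2), and was called in no pair. The genes whose 6 values most resembled those of Abl1, by the root mean square distance of centred log2 values, were Ifrd2, Snap47 and Ttll12, at distances of 0.0299, 0.0329 and 0.0341. The median distance over the 8924 genes compared was 0.302.

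Jak1, the kinase that partners many cytokine receptor chains, was lower in Abl.3 than in both other lines. Jak1 is on chromosome 4 (GRCm38, 101152367 to 101265282) and overlaps Raver2 and Gm24468 on the opposite strand and the pseudogene Gm12785 on its own. Its libraries had 234.01 and 237.05 TPM in Abl.2, 125.35 and 124.85 TPM in Abl.3, and 260.16 and 280.61 TPM in Abl.4. The values of Abl.3 lay apart from those of the other lines. Jak1 was higher in Abl.2 than in Abl.3 by 0.91 ± 0.071 on the log2 scale (SE, limma adjusted p = 2.25e-04), and Abl.3 was below Abl.4 (-1.10, limma adjusted p = 1.18e-04). Abl.2 and Abl.4 were not called apart (-0.20, limma adjusted p = 0.0776), but they were without Abl.4 replicate 1 (-0.25) and in the fit blocked on replicate number (-0.20).

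Jak2, the kinase of receptors for erythropoietin, growth hormone and interleukin 3, was the least abundant of the 10 genes. The gene spans chromosome 19 from 29251828 to 29313080 (GRCm38). The libraries had 20.46 and 20.91 TPM in Abl.2, 11.07 and 12.32 TPM in Abl.3, and 19.1 and 20.47 TPM in Abl.4. Abl.2 and Abl.4 overlapped, while Abl.3 lay below both. Jak2 was higher in Abl.2 than in Abl.3 by 0.77 on the log2 scale (limma adjusted p = 0.00198), and the difference of Abl.3 from Abl.4 was -0.71 (limma adjusted p = 0.00321). Abl.2 minus Abl.4 was 0.062 (limma adjusted p = 0.684).

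Stat5a and Stat5b, neighbouring genes for the closely related STAT5 proteins, were, like the JAK genes, lowest in Abl.3. Stat5a (chromosome 11, GRCm38, 100859351 to 100885169) overlaps Stat3 on the opposite strand, and Stat5b (100780731 to 100850724) overlaps no annotated gene. Reads shared between the paralogs could be split by the counting. Stat5a was at 30.98 and 30.47 TPM in Abl.2, 19.61 and 19.67 TPM in Abl.3, and 28.18 and 25.08 TPM in Abl.4. Stat5b was at 55.12 and 53.05 TPM in Abl.2, 37.11 and 34.54 TPM in Abl.3, and 63.71 and 57.4 TPM in Abl.4. Both genes were lowest in the libraries of Abl.3, which overlapped with no other line, and Stat5b had the higher TPM in every library.

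By limma, Stat5a was higher in Abl.2 than in Abl.3 by 0.62 on the log2 scale (adjusted p = 0.00343), and Stat5b by 0.58 (adjusted p = 0.00354). For Abl.3 minus Abl.4, limma gave -0.74 for Stat5b (adjusted p = 0.00155) and -0.42 for Stat5a (adjusted p = 0.0163). The latter was not called after quantile normalization, where it was -0.18, nor without Abl.3 replicate 1 (-0.42), Abl.3 replicate 2 (-0.42) or Abl.4 replicate 1 (-0.34). Between Abl.2 and Abl.4 the difference was 0.20 for Stat5a and -0.16 for Stat5b, and neither was called.

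**Figure D2:**
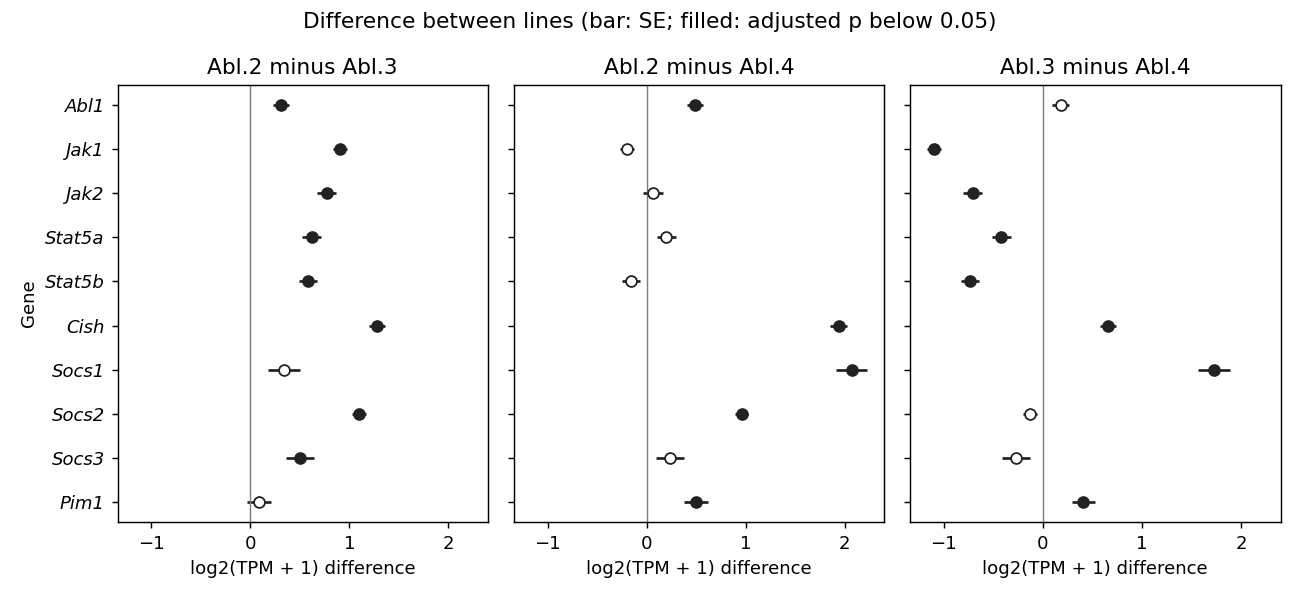
Differences in log2(TPM + 1) between each pair of lines for the 10 genes, with bars for the SE from limma and filled points for an adjusted p-value below 0.05. Of Abl.2 minus Abl.3, 8 points are filled and all lie above 0, and Cish and Socs1 have the widest differences of Abl.2 minus Abl.4, 1.94 and 2.07.

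Cish, an SH2 protein that STAT5 induces and that blocks STAT5 docking on receptors, differed between all 3 lines. Cish maps to chromosome 9 (GRCm38, 107296026 to 107302784) and overlaps Gm17040 and Gm17041 on the opposite strand. Its libraries had 398.1 and 370.23 TPM in Abl.2, 165.73 and 148.73 TPM in Abl.3, and 98.8 and 99.68 TPM in Abl.4. The order was Abl.2, Abl.3, Abl.4 with no overlap. Cish was higher in Abl.2 than in Abl.4 by 1.94 on the log2 scale (limma adjusted p = 2.00e-05) and than in Abl.3 by 1.28 (limma adjusted p = 9.32e-05). Abl.3 was above Abl.4 by 0.66 (limma adjusted p = 0.00176).

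Socs1, which inhibits JAK kinases directly, had the widest range of line means of the 10 genes, 2.07 on the log2 scale. Socs1 maps to chromosome 16 (GRCm38, 10782240 to 10785536). The libraries had 179.29 and 153.55 TPM in Abl.2, 131.56 and 130.29 TPM in Abl.3, and 46.11 and 32.77 TPM in Abl.4. Abl.4 stood below the other lines, and its replicates were spread more widely than those of Abl.3. The difference was 2.07 ± 0.16 for Abl.2 minus Abl.4 (SE, limma adjusted p = 2.18e-04) and 1.73 for Abl.3 minus Abl.4 (limma adjusted p = 5.32e-04). Abl.2 minus Abl.3 was 0.34 and was not called (limma adjusted p = 0.144), but the same value was called without either library of Abl.4, which share the estimate of the spread. The genes with the most similar pattern were Sit1, Id3 and Epop, at distances of 0.0685, 0.130 and 0.135 over 6 libraries, where the median over the 8924 genes was 0.970. Sit1 was at 226, 178 and 50.9 TPM in Abl.2, Abl.3 and Abl.4.

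Socs2, a regulator best known for restraining growth hormone signalling, was the most abundant of the 4 feedback genes in every library. Socs2 is on chromosome 10 (GRCm38, 95385362 to 95417180). Its libraries had 1407.54 and 1475.79 TPM in Abl.2, 672.29 and 674.13 TPM in Abl.3, and 754.46 and 722.68 TPM in Abl.4. Abl.2 lay far above the other lines. Socs2 was higher in Abl.2 than in Abl.3 by 1.10 (limma adjusted p = 8.22e-05) and than in Abl.4 by 0.96 (limma adjusted p = 1.45e-04). Abl.3 minus Abl.4 was -0.13, which was not called (limma adjusted p = 0.171), and it was 0.10 with summed allelic counts.

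Socs3, which limits signalling through the interleukin 6 receptor family, differed less. Socs3 is on chromosome 11 (GRCm38, 117966079 to 117970047). The libraries had 104.23 and 85.36 TPM in Abl.2, 72.2 and 60.84 TPM in Abl.3, and 85.41 and 74.85 TPM in Abl.4. Abl.2 and Abl.4 overlapped, and Abl.3 lay below both. Of the 3 differences, Abl.2 minus Abl.3 was called, at 0.50 (limma adjusted p = 0.0274). It was not called with no filter on low genes (0.50), after quantile normalization (0.39), without Abl.2 replicate 1 (0.36) or without Abl.3 replicate 2 (0.38). Abl.2 minus Abl.4 was 0.24 and Abl.3 minus Abl.4 was -0.27, and neither was called. In the fit blocked on replicate number both were called, at 0.24 and -0.27. With summed allelic counts the first was called at 0.34, and the second was 0.034.

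Pim1, a serine/threonine kinase that promotes survival and is a classic STAT5 target, was abundant in all 3 lines. It lies on chromosome 17 (GRCm38, 29490753 to 29496112) and overlaps the antisense gene Gm26885. Its libraries had 825.2 and 744.19 TPM in Abl.2, 773.01 and 699.7 TPM in Abl.3, and 615.22 and 498.58 TPM in Abl.4. Abl.2 and Abl.3 overlapped, and Abl.4 was lowest. Pim1 was higher in Abl.2 than in Abl.4 by 0.50 (limma adjusted p = 0.0209), and Abl.3 was above Abl.4 by 0.41 (limma adjusted p = 0.0374). Abl.2 minus Abl.3 was 0.091 and not called. The difference of Abl.2 from Abl.4 lost its call with no filter on low genes (0.50) and without Abl.4 replicate 2 (0.35), Abl.2 replicate 1 (0.43) or Abl.2 replicate 2 (0.57). That of Abl.3 from Abl.4 lost it with no filter (0.41), after quantile normalization (0.31) and without Abl.4 replicate 2 (0.26), Abl.3 replicate 1 (0.34), Abl.3 replicate 2 (0.48) or either library of Abl.2 (0.41).

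The F1 genome allowed the maternal and paternal alleles of 9 of the genes to be counted apart at positions where the strains differ. The 2 alleles come from different strains, so effects of parent, strain sequence and read mapping cannot be told apart here. Which strain was the mother is not stated here. The maternal share is the part of a gene's allelic counts that came from the maternal allele, and its 95% Wilson interval covers counting error only. Imbalance within a line was tested with edgeR's quasi-likelihood test against equal counts, with Benjamini-Hochberg adjustment over 8702 genes. In Abl.2, 5 of the 9 genes were called unbalanced, against 49.1% of all genes tested. In Abl.3 there were 5, against 45.1%, and in Abl.4 there were 3, against 39.9%. Differences in allelic ratio were called for 3 of the 9 genes between Abl.2 and Abl.3, against 28.4% of all genes, for 3 between Abl.2 and Abl.4, against 22.3%, and for 4 between Abl.3 and Abl.4, against 16.5%.

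Jak1 was read almost wholly from the maternal allele in Abl.2. The libraries of Abl.2 had 6138 maternal and 12 paternal counts, and 7711 maternal and 10 paternal counts, which are shares of 0.998 (0.997 to 0.999) and 0.999 (0.998 to 0.999). In Abl.3 the shares were 0.459 and 0.484, and in Abl.4 they were 0.475 and 0.479. The libraries of Abl.2 stood far from the rest, which lay just below equal counts. On the log2 scale of the allele ratio, Abl.2 differed from Abl.3 by 9.44 ± 0.26 (SE, edgeR adjusted p = 2.63e-12) and from Abl.4 by 9.41 ± 0.26 (SE, edgeR adjusted p = 3.91e-12). The 13 tested genes within 5 Mb of Jak1 had median maternal shares of 0.998, 0.531 and 0.495 across Abl.2, Abl.3 and Abl.4. The maternal share in Abl.2 was thus as high in the neighbouring genes as in Jak1.

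Multiplying TPM by the allelic share gave a maternal Jak1 level of 235 ± 2.3, 59.0 ± 2.0 and 129 ± 7.6 TPM across Abl.2, Abl.3 and Abl.4 (SD, n = 2). The paternal level was 0.382 ± 0.11, 66.1 ± 2.4 and 141 ± 6.9 TPM across Abl.2, Abl.3 and Abl.4. The maternal allele alone in Abl.2 thus had a level above either allele of the other lines.

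No imbalance of Jak2 was called. Its shares ranged from 0.498 to 0.554 over the 6 libraries, on 947 to 2295 allelic counts, and no difference between lines was called. Cish was measured more deeply, on 5192 to 29633 counts, and its shares lay between 0.476 and 0.524. No imbalance of Cish was called, and neither was a difference between lines, except for Abl.2 minus Abl.4 without Abl.4 replicate 1 (0.23), although its abundance differed between all 3. The apportioned levels of Cish (TPM times the allele's share) were 198 ± 6.0 maternal and 186 ± 14 paternal TPM in Abl.2 and 48.3 ± 1.1 and 51.0 ± 1.8 TPM in Abl.4 (SD, n = 2).

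Stat5a and Stat5b differed slightly from equal counts in some lines. The shares of Stat5a were 0.531 and 0.550 in Abl.2, 0.534 and 0.580 in Abl.3, and 0.469 and 0.483 in Abl.4. The libraries of Abl.4 were on the paternal side and the others on the maternal side. Imbalance of Stat5a was called in Abl.2 (0.24, edgeR adjusted p = 0.0318) and Abl.3 (0.33, edgeR adjusted p = 0.00883). Abl.2 differed from Abl.4 by 0.37 (edgeR adjusted p = 0.0387) and Abl.3 from Abl.4 by 0.47 (edgeR adjusted p = 0.0201). The imbalance in Abl.2 was not called with the null at the allele totals (0.072), nor without its replicate 1 (0.29) or 2 (0.18), nor that in Abl.3 without its replicate 2 (0.20). The difference of Abl.2 from Abl.4 ended on leaving out any library of these 2 lines (0.32 to 0.43), and that of Abl.3 from Abl.4 without Abl.3 replicate 2 (0.34) or Abl.4 replicate 1 (0.43).

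Stat5b was on the paternal side in Abl.2, with shares of 0.441 and 0.453, and in Abl.4, with 0.435 and 0.470, and stood at 0.477 and 0.506 in Abl.3. Imbalance was called in Abl.2 (-0.31, edgeR adjusted p = 0.00620) and Abl.4 (-0.28, edgeR adjusted p = 0.0146), and no difference between lines was called. Without Abl.2 replicate 1 the value of Abl.2 was -0.27, and without Abl.4 replicate 1 that of Abl.4 was -0.18, and neither was then called.

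**Figure D3:**
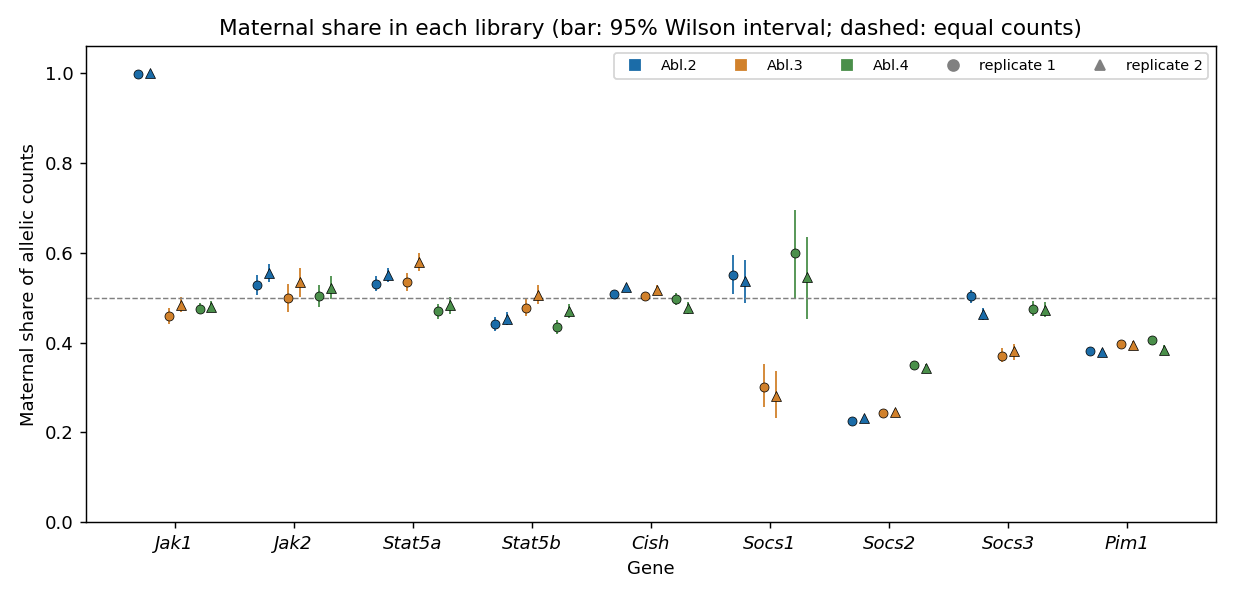
Maternal share of allelic counts for 9 genes, with 1 point for each library, coloured by line and shaped by replicate number, bars for the 95% Wilson interval and a dashed line at equal counts. Jak1 in Abl.2 lies at 0.998 and 0.999, Socs2 and Pim1 lie below equal counts in all 6 libraries, and Socs1 and Socs3 have their lowest shares in Abl.3.

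Socs1 was skewed to the paternal allele in Abl.3, with shares of 0.302 (0.256 to 0.352) and 0.281 (0.231 to 0.337). In Abl.2 the shares were 0.551 and 0.536, and in Abl.4 they were 0.600 (0.497 to 0.695) and 0.545 (0.452 to 0.634). Abl.3 did not overlap the other lines, while the intervals of Abl.4 were wide because its libraries had 90 and 112 allelic counts. Imbalance was called in Abl.3 (-1.28, edgeR adjusted p = 3.60e-04), and Abl.3 differed from Abl.2 (1.53 for Abl.2 minus Abl.3, edgeR adjusted p = 0.00106) and from Abl.4 (-1.69 for Abl.3 minus Abl.4, edgeR adjusted p = 0.00299). All 32 tested genes within 5 Mb had a higher maternal share than Socs1 in Abl.3, and their median was 0.493.

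The apportioned maternal level of Socs1 was 90.6 ± 12, 38.2 ± 2.2 and 22.8 ± 6.9 TPM across Abl.2, Abl.3 and Abl.4 (SD, n = 2). The paternal level was 75.8 ± 6.5 TPM, 92.8 ± 1.3 TPM and 16.7 ± 2.5 TPM in the same order. Both alleles were thus at their lowest mean in Abl.4, whereas in Abl.3 the maternal allele was below that of Abl.2 and the paternal allele was not.

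Socs2 was read mostly from the paternal allele in all 3 lines, on 11596 to 29198 allelic counts. The maternal shares were 0.226 and 0.231 in Abl.2, 0.243 and 0.245 in Abl.3, and 0.349 and 0.343 in Abl.4. Abl.4 was nearest to equal counts, and no lines overlapped. The log2 allele ratio was -1.76 ± 0.033 in Abl.2 (SE, edgeR adjusted p = 1.04e-11), -1.63 in Abl.3 (edgeR adjusted p = 1.34e-10) and -0.92 in Abl.4 (edgeR adjusted p = 7.25e-09). Abl.4 differed from Abl.2 (-0.84 for Abl.2 minus Abl.4, edgeR adjusted p = 1.35e-07) and from Abl.3 (-0.71 for Abl.3 minus Abl.4, edgeR adjusted p = 1.47e-06). Abl.2 minus Abl.3 was -0.13 and was not called (edgeR adjusted p = 0.0759), but DESeq2 called it at -0.13.

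The 17 tested genes within 5 Mb of Socs2 had median maternal shares of 0.348, 0.515 and 0.519 across Abl.2, Abl.3 and Abl.4. The share of Socs2 was below that of 16 of the 17 in Abl.2 and of all 17 in Abl.3 and in Abl.4. From Abl.3 to Abl.4 the nearby median thus stayed within 0.515 to 0.519 while the share of Socs2 went from 0.244 to 0.346. Between Abl.2 and Abl.4 the nearby median differed too, at 0.348 and 0.519, beside 0.228 and 0.346 for Socs2. The apportioned paternal level was 1113 ± 32, 509 ± 0.16 and 483 ± 11 TPM across Abl.2, Abl.3 and Abl.4, and the maternal level 329 ± 16, 164 ± 1.1 and 256 ± 11 TPM (SD, n = 2). Both alleles had their highest mean in Abl.2.

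Socs3 was skewed to the paternal allele in Abl.3, where its shares were 0.371 and 0.380. The libraries of Abl.2 stood at 0.503 and 0.463, those of Abl.4 at 0.475 and 0.473. The libraries of Abl.3 were the lowest, with no overlap. Imbalance was called in Abl.3 (-0.73, edgeR adjusted p = 1.39e-05) and not in the other lines. With the null at the allele totals it was also called in Abl.2 (-0.26). That null also lowered the values of Stat5a (from 0.24 to 0.072) and Cish (from 0.093 to -0.070) in Abl.2. Abl.3 differed from Abl.2 (0.64 for Abl.2 minus Abl.3, edgeR adjusted p = 4.82e-04) and from Abl.4 (-0.59 for Abl.3 minus Abl.4, edgeR adjusted p = 0.00214). Of the 115 tested genes within 5 Mb, 13 had a lower maternal share than Socs3 in Abl.3, and the median was 0.507. The apportioned maternal level was 46.0 ± 9.1, 24.9 ± 2.6 and 38.0 ± 3.7 TPM across Abl.2, Abl.3 and Abl.4, and the paternal level 48.8 ± 4.2, 41.6 ± 5.4 and 42.1 ± 3.8 TPM (SD, n = 2).

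Pim1 leaned to the paternal allele by a similar amount in all libraries, with maternal shares of 0.381 and 0.379 in Abl.2, 0.397 and 0.395 in Abl.3, and 0.406 and 0.384 in Abl.4. Imbalance was called in Abl.2 (-0.71, edgeR adjusted p = 8.50e-08), Abl.3 (-0.61, edgeR adjusted p = 6.81e-07) and Abl.4 (-0.62, edgeR adjusted p = 7.68e-07). No difference between lines was called, and the differences ranged from -0.10 to 0.0058. The 149 tested genes within 5 Mb had a median share of 0.509, 0.550 and 0.505 in Abl.2, Abl.3 and Abl.4.

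In the authors' deposited table of maternal fractions, the limits excluded 0.5 for 4, 4 and 2 of the 9 genes across Abl.2, Abl.3 and Abl.4. They did so for 38.2%, 27.2% and 22.9% of all genes with limits in the authors' deposited table. In the authors' deposited table, Jak1 was at 1.0 in Abl.2 with limits of 0.99 and 1.0, Socs1 at 0.29 in Abl.3 with limits of 0.14 and 0.47, and Socs2 at 0.35 in Abl.4 with limits of 0.32 and 0.38. Of the imbalances called here, 3 had limits that held 0.5 in the authors' deposited table, at 0.49 and 0.59 for Stat5a in Abl.2, 0.49 and 0.62 for Stat5a in Abl.3, and 0.39 and 0.51 for Stat5b in Abl.4.

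**Figure D4:**
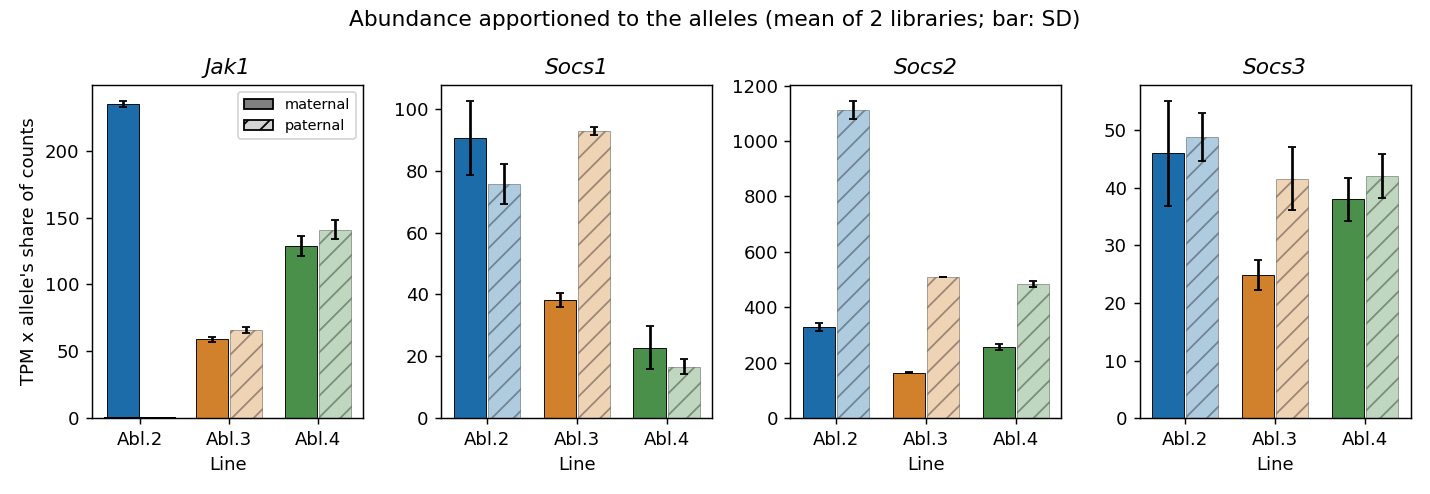
Abundance apportioned to the maternal (solid) and paternal (hatched) allele, as TPM times the allele's share of counts, for Jak1, Socs1, Socs2 and Socs3 in each line. Bars are the mean of 2 libraries with the SD; paternal Jak1 in Abl.2 is at 0.382 TPM, and the paternal bar is the higher of each pair for Socs2 in all 3 lines.

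Other genes of the pathway were counted in 5 lists. Of 7 other JAK and STAT genes, all tested, 6 were called higher in Abl.2 than in Abl.3 and 0 lower, 3 higher and 0 lower in Abl.2 than in Abl.4, and 0 higher and 5 lower in Abl.3 than in Abl.4. Of all genes tested, 25.9% were called higher and 14.0% lower for Abl.2 minus Abl.3, 15.0% and 18.4% for Abl.2 minus Abl.4, and 11.3% and 26.8% for Abl.3 minus Abl.4. The median log2 differences of the list were 0.65, 0.25 and -0.38, against 0.10, -0.027 and -0.15 over all genes tested. Stat6, the transcription factor of interleukin 4, was at 208, 92.3 and 120.3 TPM across Abl.2, Abl.3 and Abl.4, and differed from Abl.2 by 1.16 in Abl.3 (limma adjusted p = 1.26e-04). Stat2, of the interferon pathway, was higher in Abl.2 than in Abl.4 by 0.82 (limma adjusted p = 0.00161). Stat2 lies on chromosome 10, as does Socs2, and had mean maternal shares of 0.312, 0.465 and 0.486 across Abl.2, Abl.3 and Abl.4. The part of this shift in its abundance was not tested. Jak3, the kinase of the common gamma chain, was at 67.0 and 115 TPM in Abl.3 and Abl.4, a difference of -0.76 (limma adjusted p = 0.00192). Stat4 was higher in Abl.2 than in Abl.3 by 0.73 (limma adjusted p = 0.00284), and Stat3 was lower in Abl.3 than in Abl.4 (-0.64, limma adjusted p = 0.00537). Stat4 was also called between Abl.3 and Abl.4 at -0.50 (limma adjusted p = 0.0133), but not after quantile normalization (-0.29), nor without Abl.3 replicate 1 (-0.49), Abl.3 replicate 2 (-0.51) or Abl.4 replicate 1 (-0.41). After quantile normalization the calls were 6 and 0, 3 and 1, and 1 and 3 in the same order, against 18.8% and 17.8%, 18.3% and 16.4%, and 17.3% and 16.0% of all genes under that scaling.

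Of 31 cytokine receptor chains, 19 were tested, and 5 were called higher and 4 lower in Abl.2 than in Abl.3. Against Abl.4 there were 3 higher and 11 lower in Abl.2, and between Abl.3 and Abl.4 there were 1 higher and 9 lower in Abl.3. The same shares of all genes tested were 25.9% and 14.0%, 15.0% and 18.4%, and 11.3% and 26.8%. After quantile normalization the receptor calls were 5 and 6, 3 and 9, and 3 and 7, where all genes gave 18.8% and 17.8%, 18.3% and 16.4%, and 17.3% and 16.0%. As deposited, the medians were 0.062, -0.41 and -0.40, against 0.10, -0.027 and -0.15 over all genes. Il2ra, the alpha chain of the interleukin 2 receptor, was at 4.80, 0.970 and 0.680 TPM across Abl.2, Abl.3 and Abl.4, a difference of 1.78 between Abl.2 and Abl.4 (limma adjusted p = 7.87e-04). Lifr, a receptor chain for leukaemia inhibitory factor, was at 0.215, 3.58 and 5.27 TPM across Abl.2, Abl.3 and Abl.4, with -2.37 for Abl.2 minus Abl.4 (limma adjusted p = 1.03e-04). Il6ra was at 0.315 and 4.69 TPM in Abl.3 and Abl.4, a difference of -2.12 (limma adjusted p = 6.46e-04). Il4ra, the interleukin 4 receptor chain that acts through Stat6, was at 15.3, 5.79 and 20.6 TPM across Abl.2, Abl.3 and Abl.4, with 1.26 for Abl.2 minus Abl.3 (limma adjusted p = 2.69e-04) and -1.67 for Abl.3 minus Abl.4 (limma adjusted p = 9.99e-05). Csf2rb2, a beta chain of the mouse interleukin 3 receptor, was at 0.325, 0.485 and 4.04 TPM, with -1.93 for Abl.2 minus Abl.4 (limma adjusted p = 7.02e-04).

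The receptor chain of interleukin 7, Il7r, which feeds JAK1 and STAT5 in precursor B cells, was at 34.2, 42.2 and 44.9 TPM across Abl.2, Abl.3 and Abl.4. Its difference between Abl.2 and Abl.4 was -0.38 (limma adjusted p = 0.0483), and the other pairs were not called. That call was lost without either library of Abl.2 (-0.47 and -0.29), either of Abl.3 (-0.38) or Abl.4 replicate 2 (-0.26), with no filter on low genes (-0.38), after quantile normalization (-0.34) and with summed allelic counts (-0.24). Abl.2 minus Abl.3 was -0.30, and it was called after quantile normalization (-0.42), with summed allelic counts (-0.39) and in the fit blocked on replicate number (-0.30). Its partner Il2rg was at 294, 169 and 163 TPM across Abl.2, Abl.3 and Abl.4, higher in Abl.2 than in Abl.4 by 0.85 (limma adjusted p = 7.17e-04).

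Of 16 Abl family genes, adaptors and regulators, 14 were tested. Between Abl.2 and Abl.3 there were 8 called higher and 1 lower in Abl.2, between Abl.2 and Abl.4 there were 1 and 2, and between Abl.3 and Abl.4 there were 1 higher and 8 lower in Abl.3. All genes tested gave 25.9% and 14.0%, 15.0% and 18.4%, and 11.3% and 26.8%. The medians were 0.47, -0.024 and -0.51, against 0.10, -0.027 and -0.15 over all genes. Abi2, which encodes an Abl interactor, was at 10.8, 3.55 and 7.80 TPM across Abl.2, Abl.3 and Abl.4, with 1.37 for Abl.2 minus Abl.3 (limma adjusted p = 8.98e-04). Gab2, a docking protein, was at 15.1, 7.50 and 15.2 TPM, with -0.93 for Abl.3 minus Abl.4 (limma adjusted p = 0.00130). Dok3, an inhibitory adaptor of B cells, was at 150.3 and 278 TPM in Abl.2 and Abl.4, a difference of -0.88 (limma adjusted p = 8.22e-04). Cblb, a ubiquitin ligase that restrains tyrosine kinase signalling, was higher in Abl.2 than in Abl.3 by 1.25 (limma adjusted p = 0.00243) and lower in Abl.3 than in Abl.4 (-1.18, limma adjusted p = 0.00353). The adaptors Shc1 (0.41) and Grb2 (-0.45) were called between Abl.2 and Abl.4. Shc1 lost its call without either library of Abl.2 (0.40 and 0.42) or Abl.4 replicate 2 (0.36), and Grb2 with no filter on low genes (-0.45) and without any library other than Abl.4 replicate 1 (-0.51 to -0.29). After quantile normalization the calls were 6 and 1, 3 and 2, and 1 and 6, and those of all genes 18.8% and 17.8%, 18.3% and 16.4%, and 17.3% and 16.0%.

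Of 14 other negative regulators of JAK-STAT signalling, all tested, 3 were called higher in Abl.2 than in Abl.3 and 0 lower, and after quantile normalization none was called. Against Abl.4 there were 1 higher and 5 lower in Abl.2, or 3 and 4 after quantile normalization, and between Abl.3 and Abl.4 there were 0 higher and 6 lower in Abl.3, which became 0 and 2 after quantile normalization. Among all genes tested, 39.8%, 33.5% and 38.1% were called in these pairs, with 25.9% higher and 14.0% lower, 15.0% and 18.4%, and 11.3% and 26.8%. Under quantile normalization the shares of all genes were 18.8% and 17.8%, 18.3% and 16.4%, and 17.3% and 16.0%. The medians as deposited were 0.12, -0.16 and -0.26, against 0.10, -0.027 and -0.15 over all genes. Ptprc, the phosphatase CD45, was at 34.1 and 61.3 TPM in Abl.3 and Abl.4, a difference of -0.83 (limma adjusted p = 9.61e-04), and the phosphatase gene Ptpn6 at 294 and 437 TPM (-0.57, limma adjusted p = 0.00668), which was not called without Abl.3 replicate 2 (-0.50). The calls between Abl.2 and Abl.3 were Pias4 (0.47), Ptpn1 (0.37) and Ptprc (0.34). Pias4 and Ptprc lost theirs without any 1 library of these lines (0.43 to 0.51 and 0.32 to 0.37), and Ptpn1 without Abl.2 replicate 1 (0.35), Abl.2 replicate 2 (0.39) or Abl.3 replicate 2 (0.32). With summed allelic counts Ptpn1 was 0.078 and not called. Between Abl.2 and Abl.4, Pias4 was called at 0.69 but not without either library of Abl.2 (0.69), and Ptprc at -0.49 but not without Abl.2 replicate 1 (-0.46). Socs5 was called at -0.80, but not after quantile normalization (-0.45), nor without any library other than Abl.4 replicate 1 (-0.94 to -0.60). Pias3 was called between Abl.3 and Abl.4 at -0.37, but not without any 1 library of these lines (-0.39 to -0.36), with no filter on low genes (-0.37), after quantile normalization (-0.13) or with summed allelic counts (-0.16).

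Of 13 other known STAT5 targets, all tested, 4 were called higher and 6 lower in Abl.2 than in Abl.3, 3 higher and 4 lower in Abl.2 than in Abl.4, and 3 higher and 2 lower in Abl.3 than in Abl.4. Over all genes tested, 25.9% and 14.0%, 15.0% and 18.4%, and 11.3% and 26.8% were called higher and lower. After quantile normalization the calls of the targets were 5 and 6, 4 and 4, and 3 and 1, with 18.8% and 17.8%, 18.3% and 16.4%, and 17.3% and 16.0% of all genes. The medians as deposited were -0.20, 0.16 and -0.13, against 0.10, -0.027 and -0.15 over all genes. Pim2, a kinase related to Pim1, was at 145, 95.5 and 60.8 TPM across Abl.2, Abl.3 and Abl.4, and was higher in Abl.2 than in Abl.4 by 1.24 (limma adjusted p = 4.00e-04). Osm, the cytokine oncostatin M, was at 19.6 and 7.28 TPM in Abl.2 and Abl.3, a difference of 1.31 (limma adjusted p = 0.00108). Gfi1, a transcriptional repressor, was at 0.910, 13.5 and 0.300 TPM across Abl.2, Abl.3 and Abl.4, with 3.47 for Abl.3 minus Abl.4 (limma adjusted p = 1.46e-04). Ccnd3, cyclin D3 of precursor B cells, was at 959, 1988 and 1307 TPM with -1.05 for Abl.2 minus Abl.3 (limma adjusted p = 5.25e-04). Id1, an inhibitor of differentiation factors, was at 1.63, 7.25 and 5.80 TPM, with -1.65 for Abl.2 minus Abl.3 (limma adjusted p = 9.96e-04). Ccnd1, cyclin D1, was at 0.360, 0.570 and 2.57 TPM, with -1.38 for Abl.2 minus Abl.4 (limma adjusted p = 0.00327). Bcl6, a transcriptional repressor required for germinal centre B cells, was at 1.12 and 2.64 TPM in Abl.3 and Abl.4 (-0.77, limma adjusted p = 0.0137), and was not called without Abl.3 replicate 2 (-0.71) or after quantile normalization (-0.48).

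**Figure D5:**
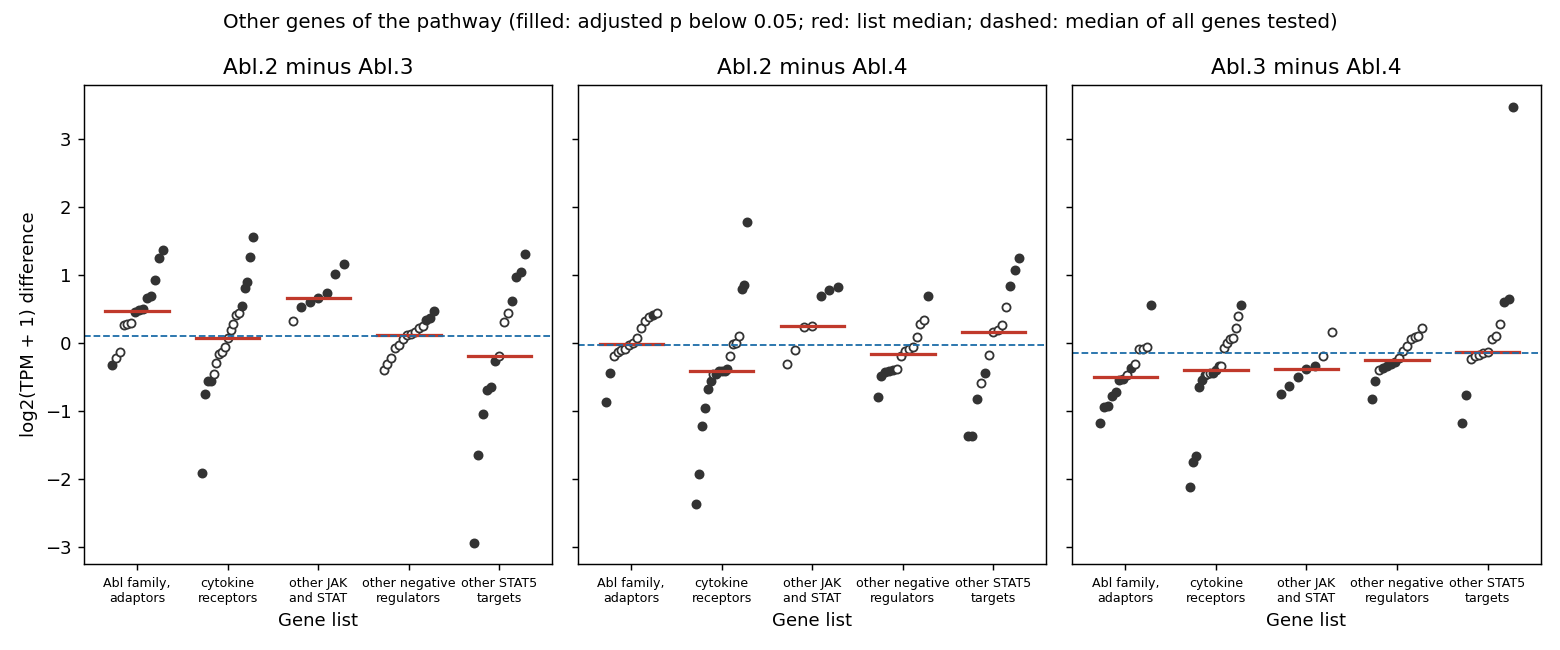
Differences in log2(TPM + 1) between each pair of lines for the tested genes of 5 pathway lists, with filled points for a limma adjusted p-value below 0.05, a red bar at the list's median and a dashed line at the median of all genes tested. Other JAK and STAT genes have a median of 0.65 in Abl.2 minus Abl.3, and Gfi1 is the point at 3.47 in Abl.3 minus Abl.4.

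A few listed autosomal genes outside chromosomes 4 and 10 were read almost wholly from 1 allele. Il2ra had a maternal share of 0.0191 ± 0.0060 in Abl.2 (SD, n = 2), the line in which it was most abundant. Its imbalance was also called to the paternal side in Abl.3 (share 0.365, edgeR adjusted p = 0.00788) and Abl.4 (share 0.115, edgeR adjusted p = 6.68e-06). Osm was at 0.943 ± 0.028 in Abl.3, Il10ra at 0.945 ± 0.031 in Abl.4 and Il6ra at 0.921 ± 0.012 in Abl.2 (SD, n = 2). Lifr was at 0.0670 ± 0.0063 in Abl.2, on 28 to 32 allelic counts. Pias3, a SUMO ligase that inhibits STAT3, had 0 maternal counts of 144 and 129 in Abl.3, which allow shares of up to 0.0208 and 0.0233 when a count of 0 is taken to allow 3 counts, or 0.0260 and 0.0289 as upper Wilson limits. Its shares in Abl.2 were 0.526 and 0.474. In Abl.4 it had 0 of 147 and 174, which allow up to 0.0204 and 0.0172 by 3 counts, or 0.0255 and 0.0216 by Wilson.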

How the data were processed

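RNA of 6 libraries was made into cDNA with the SMART-seq v4 kit, which carries no molecular identifiers, per the labels' protocols. Per the file headers, the deposited TPM values come from DESeq2. The deposited allelic counts are whole numbers per gene and allele, taken by the authors at SNP positions, per the file headers. The authors' maternal fraction per line was averaged over replicates, per the file headers. The submitters' processing notes name STAR 2.5.4a, SAMtools, GATK, DESeq2 and the builds GRCm38, GRCh37 and mm10; counting strand and annotation are not given in the sources used here. Of 35412 genes compared, 98.7% had the same start in GENCODE M21.

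Here, limma 3.58.1 (R 4.3.3) tested log2(TPM + 1) of genes whose mean reached 1 TPM, a scale that understates changes of low genes. edgeR 4.0.16 tested allelic counts (at least 20 in each library) with a term for every library and an allele term for every line. P-values were adjusted by Benjamini-Hochberg over all genes tested, with a threshold of 0.05. Replicate libraries differed by more than counting noise (chi-square of 12.5 to 21.8 per degree of freedom), and were kept as 2 per line. The scripts were tested on simulated data. The genes and lists were chosen with earlier results of these data known. Named genes were all 10 members, and from each list up to 3 called genes with the widest differences per pair. Autosomal list genes outside chromosomes 4 and 10 with a mean share of at most 0.1 or at least 0.9 were also named. Abl2, Il7r, Il2rg and Ccnd3 were added after their values were seen. The marker genes given singly, such as Pax5, Cd22 and Lyz2, were chosen outside this rule. A gene that the rule names is not reported here. Pattern likeness used genes with a mean of 5 TPM or more. The labels give the lines the same replicate numbers as library preparations, and replicate differences correlated at 0.104, 0.187 and 0.161 between pairs of lines over 11003 genes, so the fit with the number as a block is given beside each call of the 10 genes that it changes. Alternatives were other pseudocounts and filters, quantile normalization, summed allelic counts, DESeq2 1.42.0 on allelic counts, other coverage minimums, the null at the allele totals, the replicate block and leaving out each library. The allele totals were summed over all autosomal genes tested, among them Jak1 and its neighbours, almost wholly maternal in Abl.2.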

Additional observations from a re-analysis of the deposited data

Results flagged for a closer look

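Allelic ratios that differed between lines are listed here as log2 differences, each tested as a difference by edgeR with Benjamini-Hochberg adjustment. Jak1 was more maternal in Abl.2 than in Abl.3 by 9.44 and than in Abl.4 by 9.41. Stat5a was more maternal in Abl.2 than in Abl.4 by 0.37 and in Abl.3 than in Abl.4 by 0.47. For Socs1 the differences were 1.53 for Abl.2 minus Abl.3 and -1.69 for Abl.3 minus Abl.4, and for Socs3 they were 0.64 and -0.59. For Socs2 they were -0.84 for Abl.2 minus Abl.4 and -0.71 for Abl.3 minus Abl.4. Genes tested within 5 Mb of Jak1 had median maternal shares of 0.998, 0.531 and 0.495 across Abl.2, Abl.3 and Abl.4. Those near Socs2 had 0.348, 0.515 and 0.519, so in Abl.2 the neighbours of both genes differed from the other lines as well. The maternal shares of Cish were above 0.5 in both libraries of Abl.2 and of Abl.3 and below it in both of Abl.4, but the Wilson intervals of Abl.3 replicate 1 (0.493 to 0.512) and Abl.4 replicate 1 (0.483 to 0.510) held 0.5. With the null at the allele totals, the imbalance in Abl.2 was -0.070. Its differences from Abl.4 were 0.17 for Abl.2 (edgeR adjusted p = 0.0899) and 0.13 for Abl.3 (edgeR adjusted p = 0.220), and neither passed the test.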

How the results depend on the processing

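With 2 libraries of 1 clone per line, the counts depended on which libraries were used. Over the 6 libraries left out in turn, genes called in abundance ranged from 2466 to 4541 for Abl.2 minus Abl.3, 1970 to 3296 for Abl.2 minus Abl.4 and 2343 to 3691 for Abl.3 minus Abl.4. Of the 10 genes, 3 to 6 were called between Abl.2 and Abl.4, and of the 9 with allelic counts, 3 to 5 were called unbalanced in Abl.2, against 3206 to 4432 of all 8702 genes tested. Between Abl.3 and Abl.4, each of these fits called fewer of the 10 genes in abundance than the main test. Between Abl.2 and Abl.3, some fits called fewer and some more. Where a line is left with 1 library, that library is assumed to vary like the others.

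None of the values that changed sign was called in the main test. With summed allelic counts, Socs2 and Socs3 in abundance were 0.10 and 0.034 for Abl.3 minus Abl.4, and Pim1 was -0.22 for Abl.2 minus Abl.3. With the null at the allele totals, Cish in Abl.2 was -0.070. Over the libraries left out, allelic imbalance ranged from -0.0091 to 0.20 (Jak2, Abl.3), from -0.13 to 0.037 (Stat5b, Abl.3) and from -0.21 to 0.017 (Socs3, Abl.2). Allelic differences for Abl.3 minus Abl.4 ranged from -0.10 to 0.041 (Jak1), -0.085 to 0.12 (Jak2) and -0.060 to 0.073 (Pim1). For Abl.2 minus Abl.3 they ranged from -0.23 to 0.038 (Stat5a) and -0.0076 to 0.081 (Cish), and for Abl.2 minus Abl.4 from -0.13 to 0.072 (Stat5b) and -0.066 to 0.17 (Socs3). The cause was not tested.

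With the replicate block, 8, 7 and 9 of the 10 genes were called in abundance instead of 8, 5 and 7, in the order Abl.2 minus Abl.3, Abl.2 minus Abl.4 and Abl.3 minus Abl.4, and 5213, 4608 and 5184 genes in all. The added calls were Abl1 for Abl.3 minus Abl.4, Jak1 for Abl.2 minus Abl.4, and Socs3 for both. It changed no other call of these genes, allelic calls included.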
